A study of Mus musculus with 8 samples.

Results

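The probes described here are those that an Agilent mouse array assigns to RefSeq transcripts with an NR_ accession, the class RefSeq uses for transcripts without a coding sequence. They were taken by accession, and kept when the scanner software marked the spot well above background on each of the 2 arrays in 1 or more groups. Of 587 NR_ probes on the array, 399 were kept, which stand for 329 of 480 NR_ accessions. Over the whole array, 37257 of 55681 non-control probes passed the same filter. Total RNA came from T cells of mouse spleen, and each sample was hybridised to 1 array with 1 dye. The 8 arrays form 4 groups of 2. Wild-type C57BL/6 mice (WT, Lsp1+/+) gave a medium and a stimulated group, and mice deficient in Lsp1 (KO, Lsp1-/-), an F-actin-binding protein of leukocytes, gave the other two. The KO line was backcrossed onto C57BL/6 for 10 generations, and age- and sex-matched animals of 8 to 12 weeks were used. Stimulated cells were given anti-CD3/CD28 antibodies for 6 h, a standard mimic of antigen contact that acts on the T cell receptor complex and on a costimulatory receptor. T cell isolation and antibody dose are not given in the sources used here, nor whether replicates are different animals. The p-values thus weigh a difference against variation among these samples alone, and that variation may be technical. Between the KO replicates it also includes transcripts of other cell types, as given below.

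Noncoding transcripts act in several ways. Some are hosts, long transcripts whose introns or exons are cut to give small nucleolar RNAs (snoRNAs, guides for modification of ribosomal RNA) or microRNAs (short guides that repress messenger RNAs through their seed). Others stay in the nucleus and organise chromatin or nuclear bodies, such as Xist on the inactive X chromosome and Neat1 in paraspeckles, and a further class works as the RNA part of an enzyme, such as Rmrp in RNase MRP and Terc in telomerase. A resting T cell that is activated through its receptor enlarges and raises ribosome production within hours, before it divides.

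The promoters of the 2 members with the largest called increases are shown, since both responded in both genotypes. They come from RefSeq (GRCm38.p6), cover 250 bases before to 50 bases after the annotated first base, and carry in capitals any match on either strand to CACGTG (E-box), TGANTCA (AP-1) or TGGAAA (NFAT core). The matches do not overlap.
2010204K13Rik promoter, chrX:7422939-7423238, minus strand: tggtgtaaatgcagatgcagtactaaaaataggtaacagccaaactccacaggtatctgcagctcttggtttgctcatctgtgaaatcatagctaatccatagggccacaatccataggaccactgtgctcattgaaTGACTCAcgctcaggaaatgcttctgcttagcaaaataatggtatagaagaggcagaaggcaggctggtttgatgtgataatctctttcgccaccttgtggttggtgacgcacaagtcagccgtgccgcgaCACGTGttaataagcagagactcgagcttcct
D030028A08Rik promoter, chr11:96943896-96944195, plus strand: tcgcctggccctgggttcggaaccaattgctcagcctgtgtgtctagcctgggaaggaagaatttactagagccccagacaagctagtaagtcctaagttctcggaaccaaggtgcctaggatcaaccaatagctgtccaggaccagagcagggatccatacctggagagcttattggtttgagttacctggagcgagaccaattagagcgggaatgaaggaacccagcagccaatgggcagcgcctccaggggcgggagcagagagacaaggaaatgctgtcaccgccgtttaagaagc
The promoter of 2010204K13Rik held 1 TGACTCA, its first letter 113 bases before the start, and 1 CACGTG beginning at base 19 of the transcript, and a second RefSeq entry of this gene held none. The D030028A08Rik promoter held none of the 3 motifs, which says only that these letters are not in the window. Of 27025 genes with a promoter entry, 8.97% held TGANTCA, 8.09% held CACGTG and 23.9% held TGGAAA. A promoter entry was found for 164 of the 289 member symbols, and 4.27%, 10.4% and 17.1% of these held the same motifs.

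Starts of 7 snoRNA hosts follow, because the results on host transcripts turn on this class. The first 3 were called higher in KO cells after stimulation and the other 4 were called in neither genotype. Each run gives 10 bases before and 30 bases from the annotated first base on (GRCm38.p6), and capitals mark a C followed by at least 4 pyrimidines, with that C no more than 5 bases from the first base. Such a pyrimidine start is a known feature of genes of the translation machinery.
Snhg16, chr11:116671650-116671689, plus strand: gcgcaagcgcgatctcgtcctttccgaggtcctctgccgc
Dancr, chr5:74093050-74093089, plus strand: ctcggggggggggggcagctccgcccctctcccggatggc
Snhg17, chr2:158361493-158361532, minus strand: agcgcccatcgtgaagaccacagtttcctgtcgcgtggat
Snhg1, chr19:8723477-8723516, plus strand: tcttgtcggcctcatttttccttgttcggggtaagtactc
Snhg12, chr4:132308668-132308707, plus strand: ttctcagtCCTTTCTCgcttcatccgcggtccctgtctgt
Snhg7, chr2:26640215-26640254, minus strand: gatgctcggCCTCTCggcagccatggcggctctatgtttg
Snhg3, chr4:132353657-132353696, minus strand: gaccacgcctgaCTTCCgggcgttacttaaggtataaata
Snhg16, Dancr and Snhg17 carried no such run by this rule, nor did Snhg1, while Snhg12, Snhg7 and Snhg3 did. Over the host list 5 of 9 genes with an entry had one. Meg3 and Snhg10, whose gene intervals hold no listed snoRNA gene, are among these 5. The share was 21.2% of all 27025 genes and 26.2% of the 164 members. These are descriptions over few genes, and nothing about the use of the starts follows from them.

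Mature microRNAs of 3 host transcripts are given with the seed (bases 2 to 8) in capitals, as RefSeq lists them. The first 6 belong to the cluster at Mir17hg, from miR-17-5p at chr14:115043684-115043706 to miR-92a-3p at chr14:115044476-115044496 on the plus strand (GRCm38.p6). The next 2 lie within Dleu2 and the last within Mir22hg.
miR-17-5p: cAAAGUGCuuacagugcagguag
miR-18a-5p: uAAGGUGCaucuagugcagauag
miR-19a-3p: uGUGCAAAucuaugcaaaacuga
miR-20a-5p: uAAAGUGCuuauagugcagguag
miR-19b-3p: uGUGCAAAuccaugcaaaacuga
miR-92a-3p: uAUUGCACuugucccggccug
miR-15a-5p: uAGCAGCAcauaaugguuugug
miR-16-5p: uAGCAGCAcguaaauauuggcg
miR-22-3p: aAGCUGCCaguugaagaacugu
The arrays measured the hosts and not these small RNAs. In the cluster miR-17-5p and miR-20a-5p share 1 seed, and miR-19a-3p and miR-19b-3p share another, while the seeds of miR-15a-5p and miR-16-5p are identical. The table's Mir17hg interval holds only the gene of miR-92a-3p, and the other 5 lie between 10 and 684 bases upstream of it.

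Lsp1 itself, the targeted gene, read 6.98 to 7.47 on the WT arrays and 3.48 to 3.68 on the KO arrays, well above background on all 8. Values throughout are log2 of the processed signal minus log2 of the 75th percentile of signal on the same array. An array detected 350 to 417 of the 587 NR_ probes above background, with the WT medium arrays highest at 416 and 417. All 10 measured T cell markers were well above background on all 8 arrays, and so were all 9 B cell and all 8 natural killer cell markers. Both KO replicate 2 arrays stood apart. The median of 12 neutrophil markers, relative to the WT medium mean, was 4.22 and 3.41 there, against -0.87 to 0.29 on the other 6 arrays. The median of 8 erythroid and platelet markers was 2.04 and 2.55 on the same arrays, against -0.67 to 0.56 on the others. The monocyte and macrophage median was 0.68 and 0.84 on them and -0.01 to 0.08 elsewhere. The B cell median was -0.56 to -1.02 on the 4 KO arrays and -0.33 to 0.21 on the WT arrays, and the natural killer cell median -0.43 to -0.49 and -0.13 to 0.05. The part of these cells in the results was not tested, and values without both KO replicate 2 arrays are given beside several KO results. Fewer cells of a type and less RNA per cell cannot be told apart. On the slide the rows separate medium from stimulated arrays and the columns separate genotypes, and slide position cannot be told apart from group.

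In WT cells a few long noncoding RNAs and pseudogene transcripts were called higher after stimulation, and others, structured RNAs among them, were called lower. In limma, 24 of 399 probes passed an adjusted p below 0.05, 15 higher and 9 lower. The share of members called was 6.02%, next to 6.05% of all 37257 probes, of which 3.53% were higher and 2.53% lower. The count depended on single arrays: it was 2, 5, 2 and 3 without WT medium replicate 1 or 2 or stimulated WT replicate 1 or 2, and 15 without either KO medium array. With each array centred on the probes detected on all arrays, the split was 21 higher and 6 lower. More members were lower than higher in other settings, with 14 higher and 19 lower at 1 probe per gene symbol, 16 and 23 with only the WT groups in the fit or without both KO replicate 2 arrays, and 30 and 44 with array weights. At an unadjusted p below 0.05 there were 121 members, where 27.5% of all probes lay. The stimulated arrays lay above the medium arrays for 106 members and below them for 181, beside 24.1% and 43.6% of all probes. In KO cells 26 members were called, 23 higher and 3 lower, or 6.52% next to 4.44% of all probes, with 3.4% of all probes higher and 1.04% lower. Here 97 members had an unadjusted p below 0.05 (20.6% of all probes), 78 were higher and 113 lower without overlap (19.8% and 27% of all probes), and normexp background correction gave 24 higher and 9 lower. The median difference over members was -0.15 in WT and -0.09 in KO, beside -0.12 and -0.08 over all probes. Cdk3, named after its value was seen, was lower in stimulated KO cells without both KO replicate 2 arrays, which leaves 1 array per KO group. With all arrays Cdk3 was not called. It was well above background on 1 KO medium array and on neither stimulated KO array, and no size is given for it. Without 1 array at a time the KO count was 3 (KO medium replicate 2), 4 (stimulated KO replicate 2), 6 (KO medium replicate 1), 6 (either stimulated WT array), 10 (either WT medium array) or 21 (stimulated KO replicate 1).

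Both genotypes called 14 of the 399 members, beside 1265 of all 37257 probes (3.4%). The 14 are 58.3% of the 24 members called in WT and 53.8% of the 26 called in KO. Among all probes, the 1265 stand beside 2255 called in WT and 1655 called in KO. Of the 14, 13 were higher and 1 was lower. No member was called in opposite directions. The 10 probes called in WT and not KO kept their sign in KO, and the 12 called in KO and not WT kept theirs in WT. Across the 399 probes the 2 responses had a Pearson correlation of 0.71, and 0.69 across all probes. Probes are not independent replicates, and the 2 contrasts share no array.

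**Figure D1:**
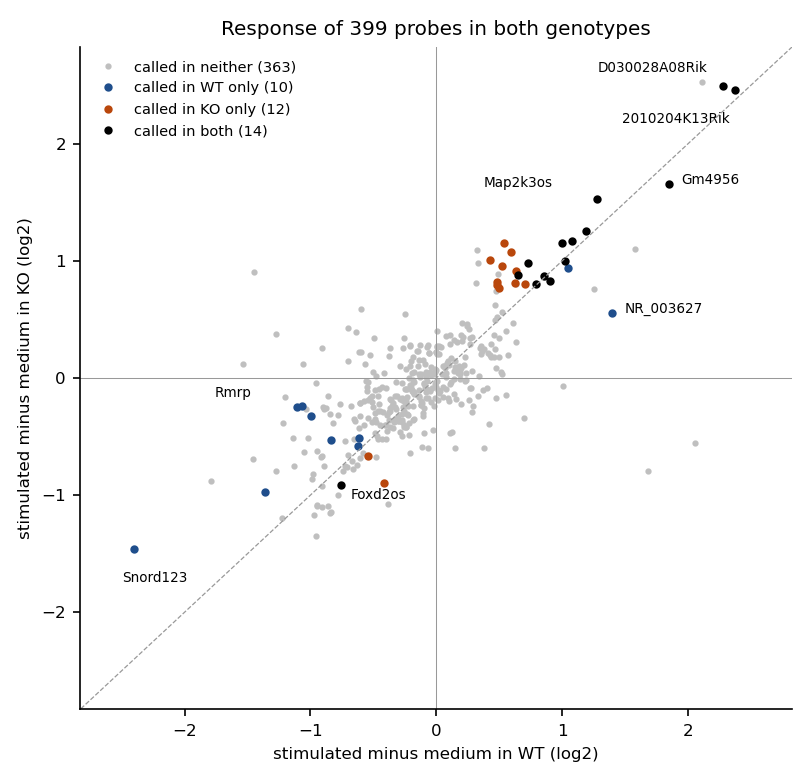
Difference between stimulated and medium cells (log2) in WT on the horizontal axis and in KO on the vertical axis, 1 point per probe for 399 probes, coloured by the genotypes in which limma called it, with equality as a dashed line. The 14 probes called in both genotypes lie in the upper right corner except Foxd2os, and no called probe lies in a quadrant of opposite signs.

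In WT cells the largest called increase belonged to 2010204K13Rik, a long noncoding RNA gene on the X chromosome that lies between Usp27x and Ppp1r3f. Its values were, on the WT arrays, -4.20 and -4.22 at rest and -1.79 and -1.87 once stimulated, and on the KO arrays -4.45 and -4.48, then -2.23 and -1.78. All 4 stimulated arrays lay far above all 4 medium arrays. The difference was 2.38 ± 0.17 (SE, 2 arrays per group, limma adjusted p = 0.00238) in WT and 2.46 ± 0.17 (adjusted p = 0.00231) in KO cells. Neither flanking gene was called. Ppp1r3f differed by 0.47 and 0.66, and Usp27x by 0.24 and 0.08, in WT and KO.

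D030028A08Rik, a long noncoding RNA gene that overlaps the transcription factor gene Sp2, had the second largest called increase in WT cells and the largest in KO cells. It read -4.28 and -4.41 (medium) against -2.08 and -2.04 (stimulated) in WT, with -4.67 and -4.30 against -2.14 and -1.83 for KO. The stimulated and medium arrays again did not overlap in either genotype. The differences were 2.28 ± 0.18 (limma adjusted p = 0.00314) and 2.50 ± 0.18 (adjusted p = 0.00248). The probe for Sp2 went the other way without passing the test, at -0.32 and -0.17. Without both KO replicate 2 arrays, 2010204K13Rik and D030028A08Rik were the 2 members still called higher in KO cells, at 2.23 and 2.52.

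Gm4956 is listed as a transcribed pseudogene. Its arrays read 0.48 and 0.23 unstimulated, 2.24 and 2.18 stimulated for WT arrays; the KO arrays gave -0.21 and -0.61, followed by 1.45 and 1.05. In each genotype the stimulated arrays were the higher ones, and in each condition both KO arrays lay below both WT arrays. Stimulation raised it by 1.85 ± 0.21 in WT (limma adjusted p = 0.00895) and 1.66 ± 0.21 in KO cells (adjusted p = 0.0127). The KO minus WT differences, -0.77 in medium and -0.96 after stimulation, did not pass (adjusted p = 0.601 and 0.374), and were -0.57 and -0.76 without both KO replicate 2 arrays.

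Among other members called higher in both genotypes, 9930014A18Rik had 2 probes and both were called, with differences of 1.19 and 1.02 in WT and 1.26 and 1.0 in KO cells. Named after their values were seen are NR_002840, Gm13315 and Pdxk-ps. The accession NR_002840, which the names table used here does not list, had 2 of its 3 probes called in both genotypes (0.65 and 0.73 in WT, 0.88 and 0.98 in KO), while the third lay at -0.33 and -0.25. The pseudogene transcripts Gm13315, Pdxk-ps and Gm9199 rose by 0.86, 0.80 and 0.90 in WT and by 0.87, 0.80 and 0.83 in KO cells. For Pdxk-ps the parent gene Pdxk, a pyridoxal kinase, was at 0.32 and 0.50 and was not called. A pseudogene probe can also bind the transcript of its parent, so these members are uncertain.

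Gm5039, a pseudogene transcript, rose by 1.05 in WT and differed by 0.94 in KO cells, where it did not pass. Passing in KO and not in WT were 2900005J15Rik, Gm6787, F730043M19Rik and NR_024078, at 0.82, 0.95, 0.77 and 0.81, with 0.48, 0.52, 0.50 and 0.63 in WT. All 4 of these are named after their values were seen.

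**Figure D2:**
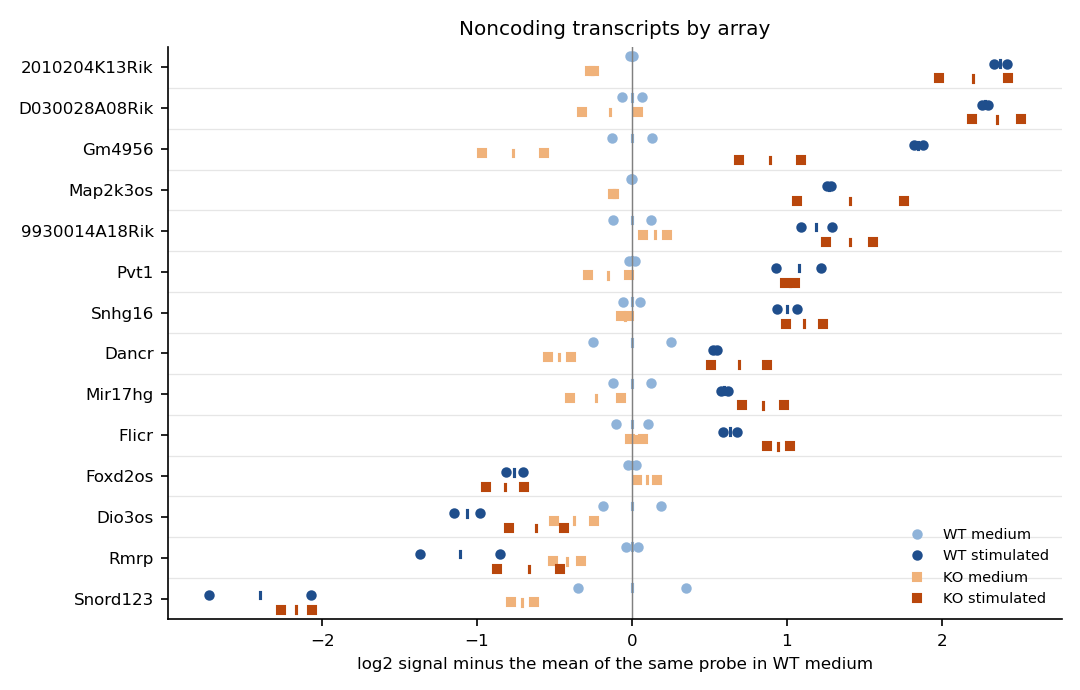
Log2 signal of 14 members on each of the 8 arrays, relative to the mean of the same probe in WT medium; points are arrays, short bars are group means, and circles and squares are WT and KO. For 2010204K13Rik and D030028A08Rik the 4 stimulated arrays lie between 1.98 and 2.52, whereas for Dio3os and Rmrp the KO medium and KO stimulated arrays overlap. Snord123 was not well above background on any stimulated array, and its points there do not give the size of its fall.

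On the snoRNA host list, which was taken by symbol, called members were all higher after stimulation. The list held 11 probes for 10 genes, 9 probes of which also stand in a list of immune-linked RNAs. In WT cells 1 probe was called higher (9.09%, beside 3.53% of all probes) and none lower, and 7 of 11 were positive, with a median of 0.14. In KO cells 4 were called higher (36.4%, beside 3.4% of all probes) and none lower, and 9 were positive, with a median of 0.25. Among all 37257 probes, 14269 were positive in WT and 15242 in KO. Only Snhg16 passed in WT cells. This host of Snord1a, Snord1b and Snord1c read, on the WT arrays, -0.32 and -0.21 at rest and 0.80 and 0.67 once stimulated, and on the KO arrays -0.29 and -0.34, then 0.73 and 0.96. Every stimulated array exceeded every medium array. The increase was 1.0 ± 0.14 in WT (limma adjusted p = 0.0171) and 1.16 ± 0.14 in KO (adjusted p = 0.0111). A second Snhg16 probe differed by 0.48 in WT (adjusted p = 0.119) and rose by 0.80 in KO cells (adjusted p = 0.0467).

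Dancr, which holds Snora26, read 0.90 and 0.39 (medium) against 1.17 and 1.19 (stimulated) in WT, with 0.25 and 0.10 against 1.15 and 1.52 for KO. The KO medium arrays were the lowest 2, and stimulated arrays did not overlap medium arrays in either genotype. Its difference was 0.54 ± 0.21 in WT (limma adjusted p = 0.168) and 1.16 ± 0.21 in KO cells (adjusted p = 0.0379). Snhg17 differed by 0.70 ± 0.15 in WT, just outside the threshold (adjusted p = 0.0535), and by 0.80 ± 0.15 in KO cells, just inside it (adjusted p = 0.044). The difference between the genotypes' responses was 0.62 for Dancr and 0.10 for Snhg17, and neither passed. Without both KO replicate 2 arrays no snoRNA host was called in KO cells, and Snhg16, Dancr and Snhg17 differed by 1.01, 0.90 and 0.58.

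None of the other genes on the host list was called. Snhg1, host of a long series of snoRNAs of the box C/D class, differed by 0.35 in WT and 0.25 in KO cells, and Snhg3, host of Snora73a and Snora73b, by 0.14 and 0.32. Snhg6, Snhg7, Snhg10 and Snhg12 lay between -0.18 and 0.06 in WT and between -0.12 and 0.23 in KO. Meg3, an imprinted transcript, was the lowest of the list at -0.49 and -0.47. Meg3 and Snhg10 were listed by symbol, and the gene interval of each holds microRNA but no listed snoRNA genes. Of 15 probes whose gene interval holds a snoRNA gene, 1 was called higher in WT (6.67%), 4 were called higher in KO (26.7%) and none was called lower. These called probes are the ones already counted on the host list, for Snhg16, Dancr and Snhg17, and so add no separate result. Of all probes 3.53% and 3.4% were called higher.

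The proteins that bind snoRNAs were measured on the same arrays. Of 16 such genes, 10 were called higher in WT and 11 in KO cells, beside 3.53% and 3.4% of all probes. None was called lower, and the medians were 0.90 and 1.08. Nolc1, a nucleolar assembly factor, rose by 1.72 and 1.93, Dkc1, the pseudouridine synthase, by 1.44 and 1.59, and Nop58 and Fbl, which form the box C/D particle, by 1.16 and 0.86 in WT and 1.66 and 0.98 in KO. No gene was called among 17 of microRNA processing, 14 of nonsense-mediated decay and 12 of paraspeckles, in either genotype. Of all probes 6.05% were called in WT and 4.44% in KO cells. These genes are described beside the hosts, and the link between them was not tested.

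**Figure D3:**
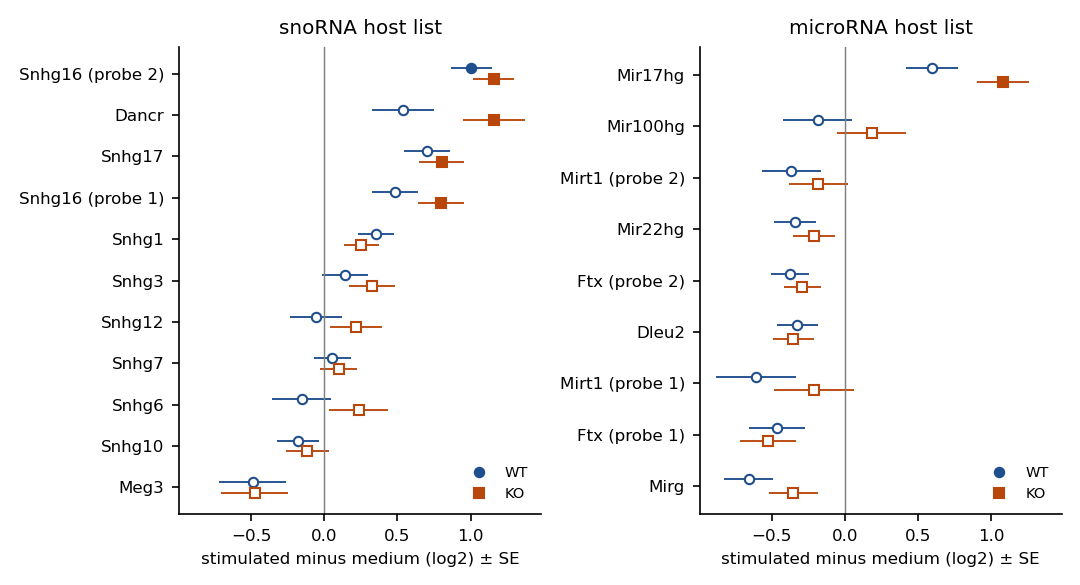
Difference between stimulated and medium cells (log2, with SE from limma) for the 11 probes of the snoRNA host list and the 9 probes of the microRNA host list, circles for WT and squares for KO, filled where called. Both lists were taken by symbol. No snoRNA gene is listed within Meg3 or Snhg10, and no microRNA gene within Mirt1. In the snoRNA list 4 squares and 1 circle are filled, the lowest of them at 0.80, and in the microRNA list the single filled point is Mir17hg in KO cells.

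Of the microRNA host list, 9 probes of 7 genes, none was called in WT and 1 in KO cells, beside 6.05% and 4.44% of all probes. That one was Mir17hg, the host of the cluster whose members are printed above, known to promote lymphocyte growth and survival. It read 2.07 and 1.83 unstimulated, 2.52 and 2.57 stimulated for WT arrays; the KO arrays gave 1.88 and 1.55, followed by 2.66 and 2.93, without overlap between conditions. It differed by 0.60 ± 0.18 in WT (limma adjusted p = 0.0987) and 1.08 ± 0.18 in KO cells (adjusted p = 0.0282), and by 0.78 in KO without both replicate 2 arrays, where it was not called. The other 8 probes were all below 0 in WT cells, among them 2 for Mirt1 (-0.61 and -0.36) and 1 for Mir100hg (-0.19). Most probes of the array were also below 0 there, with 14269 of 37257 above it. Mirt1 is on the list by its symbol alone, and no microRNA gene is listed within its interval. Dleu2, host of miR-15a and miR-16-1, differed by -0.33 and -0.35, Mir22hg by -0.34 and -0.21, and the 2 Ftx probes by -0.38 and -0.46 in WT and by -0.29 and -0.52 in KO. None of these passed. Mirg, in the same imprinted region as Meg3, was at -0.66 in WT (adjusted p = 0.0722) and -0.35 in KO.

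Of 20 probes on a list of nuclear and chromatin-linked RNAs, 1 was called in each genotype, and it was the same Pvt1 probe. That is 5.0% of the list, beside 6.05% of all probes in WT and 4.44% in KO. Pvt1 lies next to Myc, the growth regulator. The probe read, on the WT arrays, 0.35 and 0.31 at rest and 1.26 and 1.55 once stimulated, and on the KO arrays 0.31 and 0.04, then 1.32 and 1.38. All stimulated arrays were above all medium arrays. Its increase was 1.08 ± 0.16 in WT (limma adjusted p = 0.0201) and 1.17 ± 0.16 in KO (adjusted p = 0.0163). A second Pvt1 probe was at 0.64 and 0.80 and was not called. Without both KO replicate 2 arrays the first probe differed by 1.01 and was not called.

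Neat1, the scaffold of paraspeckles, read 5.33 and 4.98 (medium) against 4.23 and 4.24 (stimulated) in WT, with 5.09 and 4.93 against 4.58 and 4.08 for KO. The stimulated arrays were the lower ones in both genotypes, but neither difference passed, at -0.92 ± 0.21 (limma adjusted p = 0.0585) and -0.68 ± 0.21 (adjusted p = 0.143). Malat1, its neighbour and a nuclear speckle RNA, was at -0.84 in WT (adjusted p = 0.0898) and -0.31 in KO. The 2 probes named Xist lay between -0.33 and -0.16 in both genotypes. Norad stands on this list although it is a cytoplasmic binder of Pumilio proteins. It had 4 probes between -0.41 and 0.26 in WT and between 0.04 and 0.47 in KO, and none passed. Tug1 had 3 probes between -0.24 and 0.50 in WT and between 0.06 and 0.34 in KO, none called. Airn, an imprinted antisense RNA, had 2 probes at 0.22 and -0.08 in WT and 0.35 and 0.04 in KO. Jpx and Miat were not well above background on several arrays, and no size is given for them.

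Rmrp, the RNA of RNase MRP, an enzyme of ribosomal RNA maturation, fell in WT cells. It read 0.95 and 0.87 unstimulated, -0.46 and 0.06 stimulated for WT arrays; the KO arrays gave 0.58 and 0.40, followed by 0.04 and 0.45. The stimulated WT arrays were below both medium arrays, whereas the KO groups overlapped. The difference was -1.11 ± 0.22 in WT (limma adjusted p = 0.044) and -0.25 in KO cells (adjusted p = 0.599), and the genotypes' responses differed by 0.86 (unadjusted p = 0.033), which did not pass. The KO difference was -0.54 and the difference between responses 0.57 without both KO replicate 2 arrays. Snord123, a box C/D snoRNA, read -4.25 and -4.95 in WT medium and was not well above background on either stimulated WT array. It was at least 2.06-fold lower in stimulated WT cells (adjusted p = 0.0128), a bound that takes the lowest signal well above background on the dim arrays. In KO cells it did not pass (adjusted p = 0.0539).

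Rprl3, a gene listed as RNase P RNA, was called lower in WT cells (limma adjusted p = 0.0232), but it was not above background on either stimulated array and the bound gives no fold. It passed the filter only through WT medium, the group in which it was high, so its place among the 9 lower calls is no independent support. Rpph1, the RNA of RNase P, differed by -1.06 ± 0.32 in WT (adjusted p = 0.102) and 0.12 in KO cells. Terc, the telomerase RNA, differed by -0.37 and 0.19, and the snoRNA Snora74a by -0.13 and 0.28, and none passed. In KO cells without both replicate 2 arrays Rpph1, Terc and Snora74a were at -0.35, -0.11 and -0.05. In the list of 5 structured RNAs, 2 were called lower in WT, Rmrp and Snord123, and none in KO cells, beside 2.53% and 1.04% of all probes. The labels do not say how the RNA was primed for labelling, which bears on transcripts without a poly(A) tail.

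Dio3os and 4930579K19Rik, both long noncoding RNAs, also fell in WT cells. Dio3os, opposite to the imprinted deiodinase gene Dio3, read, on the WT arrays, -3.70 and -4.07 at rest and -5.03 and -4.87 once stimulated, and on the KO arrays -4.13 and -4.38, then -4.32 and -4.68. The WT groups were apart and the KO groups overlapped. Its difference was -1.07 ± 0.20 in WT (limma adjusted p = 0.0381) and -0.24 in KO. 4930579K19Rik, well above background on 6 of 8 arrays, fell by 1.36 in WT (adjusted p = 0.0473) and differed by -0.97 in KO, where it did not pass. Smaller decreases were called in WT cells for 3110099E03Rik, Gpr137b-ps and 4933409K07Rik, at -0.84, -0.63 and -0.61. A second probe of 4933409K07Rik was at 0.05, and the parent gene Gpr137b fell by 0.76, which the pseudogene probe may also bind. In KO cells 0610040B10Rik fell by 0.66, and the unnamed NR_030716 was at least 1.31-fold lower, with its second probe at -0.24.

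Foxd2os was the member called lower in both genotypes. It is transcribed opposite to the forkhead factor gene Foxd2, and read -1.05 and -1.10 (medium) against -1.89 and -1.78 (stimulated) in WT, with -0.92 and -1.04 against -1.77 and -2.02 for KO. The stimulated arrays were lower without overlap. It fell by 0.76 in WT (limma adjusted p = 0.0357) and by 0.91 in KO cells (adjusted p = 0.0231), and without both KO replicate 2 arrays it differed by -0.85, not called. Foxd2 itself was at -0.88 and -0.87 and did not pass (adjusted p = 0.0758 and 0.1).

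Several members sit beside coding genes of the T cell response, and their values are given together; those named were picked after the values were seen. Flicr, known from regulatory T cells, overlaps Foxp3, the factor that defines them. It read -4.45 and -4.24 unstimulated, -3.75 and -3.66 stimulated for WT arrays; the KO arrays gave -4.36 and -4.27, followed by -3.33 and -3.47. Stimulated arrays were higher throughout. It differed by 0.64 ± 0.14 in WT (limma adjusted p = 0.0505) and rose by 0.92 ± 0.14 in KO cells (adjusted p = 0.0216), and by 1.03, not called, without both replicate 2 arrays. Foxp3 rose by 1.31 and 1.48 (adjusted p = 0.0073 and 0.00531).

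Map2k3os, opposite to the p38 kinase activator Map2k3, read, on the WT arrays, -2.41 and -2.40 at rest and -1.14 and -1.12 once stimulated, and on the KO arrays -2.52 and -2.53, then -1.34 and -0.65. The medium arrays were close together and all stimulated arrays were higher. It rose by 1.27 ± 0.23 in WT (limma adjusted p = 0.0319) and 1.53 ± 0.23 in KO (adjusted p = 0.0206), and differed by 1.18 there, not called, without both replicate 2 arrays. Map2k3 differed by 0.80 and 0.85, outside the threshold (adjusted p = 0.0523 and 0.0526). Whether an opposite-strand probe also takes up labelled RNA of its partner was not tested. Gm9199 overlaps Cysltr2, a leukotriene receptor gene, which rose by 1.70 and 1.40. Myc rose by 3.79 and 3.74 beside Pvt1, and Isg15, an interferon-induced gene, by 2.27 and 2.46 beside AW011738, of which 1 probe was called, in KO, at 1.01 and the other was at 0.46.

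Coding genes were also called beside members that were not called. Rcc1, next to Snhg3, rose by 0.96 and 1.32, and Wdr74, next to Snhg1, by 0.71 and 0.82. Bcl2l11, the death gene next to Morrbid, rose by 0.79 in KO cells (limma adjusted p = 0.0352) and differed by 0.50 in WT, while Morrbid was at 0.32 ± 0.43 in WT and 1.1 ± 0.43 in KO and was not called. Atad3a rose by 1.05 and 1.36, with Atad3aos at -0.58 and -0.64. Called members had 28 measured flanking coding genes in WT, of which 5 were called (17.9%), and other members had 393, of which 25 were called (6.36%). In KO cells the numbers were 4 of 30 and 19 of 391, or 13.3% and 4.86%, and the difference was not tested. Of all probes 6.05% were called in WT and 4.44% in KO. Of the called genes beside called members, 3 of 5 in WT and 3 of 4 in KO moved in the direction of their member. Of 13 pairs on opposite strands, 7 had the same sign in WT and 9 in KO. Of 12 pairs of a pseudogene probe and its parent gene, covering 7 parents, 10 had the same sign in WT and 11 in KO. Binding of parent transcripts by these probes was not tested.

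**Figure D4:**
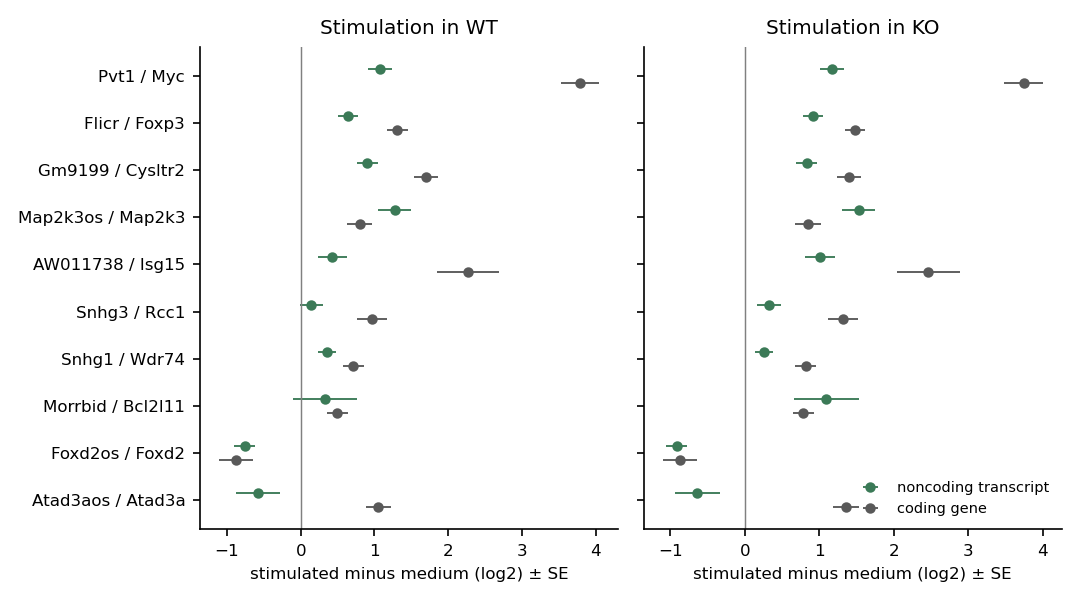
Difference between stimulated and medium cells (log2, with SE from limma) for 10 members and a coding gene that overlaps, flanks or lies opposite to each, WT on the left and KO on the right. In both genotypes the coding gene lies further from 0 than the noncoding transcript for Myc, Foxp3, Cysltr2, Isg15, Rcc1, Wdr74 and Atad3a. For Foxd2 and Bcl2l11 this holds in WT only. Atad3a lies on the other side of 0 from its noncoding transcript.

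No member was called between the genotypes. In medium, 0 of 399 passed in limma, where 0.00805% of all probes did (0.00268% higher, 0.00537% lower), and 34 had an unadjusted p below 0.05, a level reached by 8.06% of all probes. After stimulation the counts were 0 and 18, beside 0.0215% (0.00805% higher, 0.0134% lower) and 5.68% of all probes. In medium both KO arrays lay above both WT arrays for 49 members and below for 130, beside 12.7% and 26.1% of all probes, and after stimulation for 62 and 114, beside 14.1% and 24.9%. B cell and natural killer cell marker medians were also lower on all 4 KO arrays, and their part in these counts was not tested. For the difference between the responses they were 0 and 19, beside 0% and 4.61%. In medium the lowest p-values belonged to Gm5478 (0.60), NR_003627 (0.98), AA387883 (-0.60), Gm4956 (-0.77) and Gm5801 (-0.66), as KO minus WT on the log2 scale. After stimulation they belonged to Gm4956 (-0.96), Speer8-ps1 (-0.99), Mirg (0.70), F930015N05Rik and 2610035D17Rik (-0.71). F930015N05Rik was not well above background on either stimulated KO array and was at least 1.58-fold lower there, not called (limma adjusted p = 0.521). Without both KO replicate 2 arrays the medium values were 0.66, 0.95, -0.48, -0.57 and -0.43 in the same order, and the values after stimulation -0.76, -1.05, 0.83 and -0.54 without F930015N05Rik, none of them called.

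Kcnq1ot1, the imprinted antisense transcript of the Kcnq1 locus, had the lowest p for a difference between the responses. It read -0.02 and -0.58 (medium) against -0.97 and -0.90 (stimulated) in WT, with -0.84 and -1.16 against -0.47 and -0.75 for KO. The stimulated arrays were below the medium arrays in WT and above them in KO. The responses differed by 1.03 ± 0.32 (limma unadjusted p = 0.0172), which did not pass, and by 0.84 on its second probe. Without both KO replicate 2 arrays the first value was 1.01. The next lowest p-values belonged to Speer8-ps1 (-0.98), 1 of 2 probes of 1700008J07Rik, Rprl3 and Gm6994 (-0.49). The 1700008J07Rik probe and Rprl3 were not well above background on both arrays of any group but WT medium, and no size is given for them. NR_003627, called only in WT, read -5.69 and -4.98 unstimulated, -3.85 and -4.03 stimulated for WT arrays; the KO arrays gave -4.39 and -4.33, followed by -3.78 and -3.82. Its KO medium arrays lay above the WT medium arrays, and all stimulated arrays were close together.

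Dim members passed the filter mostly through WT medium. Both arrays of all 4 groups were well above background for 329 members, and 37 were kept through 1 group, of which 35 through WT medium. The highest array value of those 37 ranged from -5.94 to -1.79, and that of the 55 probes left out with 1 or 2 arrays well above background from -6.40 to -1.70. In WT cells 37 members were detected on both medium and no stimulated array, or 9.27% next to 10.4% of all probes, and 0 the other way. In KO cells the counts were 12 and 1, or 3.01% and 0.251% next to 1.6% and 0.443% of all probes, and the 1 was Gm10649. The lowest signal well above background was -6.34 and -6.63 on the WT medium arrays and -5.66 and -5.63 on the stimulated WT arrays. On the KO arrays it was -6.27 and -5.87, then -5.75 and -5.80. The part of these floors in the detection counts was not tested.

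Probes of 1 accession gave like values only in part. Of 59 accessions with more than 1 kept probe, 40 had all probes on the same side of 0 in WT and 47 in KO cells. The median range among their differences was 0.19 in WT and 0.16 in KO. The largest range was 1.74 in WT, for an accession with a probe near background, and 1.23 in KO. In each genotype 6 of these accessions had a called probe, and all probes were called for 1 in WT and 2 in KO. Prmt6, an arginine methyltransferase gene, had 2 NR_ probes at 0.09 and 0.40 in WT, while a probe of the gene outside the NR_ set was at 0.83. The root mean square SD between the 2 arrays of a group over members was 0.25 and 0.33 for the medium and stimulated WT pairs and 0.35 and 0.30 for the KO pairs.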

How the data were processed

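Per the file headers, spots were quantified as intensity with Feature Extraction (Agilent, 10.7.1.1), and the design's build is mm9; the deposited processed intensity is background-subtracted by that program. The authors' deposited value table holds the median intensity. Control spots were left out, log2 of the processed intensity was taken, and log2 of the array's 75th percentile over all non-control spots was subtracted. Repeated spots were then averaged without those marked as outliers. A probe with all its spots marked kept its value. Group means were fitted over all 8 arrays with limma 3.58.1 in R 4.3.3 (4 residual degrees of freedom and 2.27 from the moderated variance). P-values are two-sided, Benjamini-Hochberg adjusted over 37257 probes per contrast, and called below 0.05; ± is the SE of the fit. The 5 contrasts were stimulation in each genotype, genotype in each condition, and the difference of responses. Names came from a RefSeq table of GRCm38.p6 by accession, which named 350 of 399 members: 213 long noncoding RNA, 112 transcribed pseudogene, 9 coding and 16 other probes; 49 are given by accession. Its coordinates were not used with the files, whose build differs. The members and lists were chosen with earlier results of these data known. The naming rule took the 10 largest called differences in each direction and genotype whose arrays do not overlap, the 5 lowest p-values of each genotype contrast, and all role-list members. The script was tested on simulated data. The number of arrays limits the precision.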

Additional observations from a re-analysis of the deposited data

How the results depend on the processing

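The direction of every named called member held in all alternatives that gave a value. The WT count of 24 was 37 with normexp on median signals (an alternative chosen after seeing the files, which hold no mean signal, so the planned form was not run), 95 without a filter on dim probes, 40 with probes well above background on all 8 arrays, 39 with only the groups compared in the fit and again without both KO replicate 2 arrays, and 74 with array weights. The KO count of 26 was 8 without the filter, 0 with only the groups compared in limma (at 2 residual degrees of freedom, with 62 members at an unadjusted p below 0.05), 8 with array weights and 3 without both KO replicate 2 arrays. Leaving out 1 array at a time gave 2 to 25 in WT and 3 to 21 in KO cells. Of the called named members, 19 in WT and 17 in KO, 22 of 238 and 58 of 214 values under other settings, and 93 of 171 and 100 of 153 under leave-out settings, were no longer past the threshold. The share higher in WT, 62.5%, was 77.8% with centring on probes detected on all arrays, where the median of all probes was -0.06 in place of -0.12 (-0.02 with the deposited value table). It was 42.4% at 1 probe per gene symbol, 41.0% with only the groups compared (16 higher, 23 lower) and without both KO replicate 2 arrays, 40.5% with array weights (30 and 44), 46.9% with the replicate block and 35.4% with the replicate block within genotype (17 and 31). The share higher in KO, 88.5%, was 72.7% with normexp, 71.4% with probes well above background on all 8 arrays, 68.0% at 1 probe per gene symbol, 64.3% with the replicate block and 54.3% with it within genotype. 2010204K13Rik and D030028A08Rik were called in WT under all 22 alternatives and in KO cells under 21. No genotype contrast called a member under any alternative. With the replicate number as a block the counts were 32 (15 higher, 17 lower) and 28 (18 and 10), and with the replicate block within genotype 48 and 35. Same-numbered arrays deviated together in KO (r = 0.56) but not in WT (r = 0.09). Both KO replicate 2 arrays also shared the raised neutrophil, erythroid and platelet markers. Across WT stimulated and KO arrays r was -0.14 and -0.13, which cannot speak to pairing within KO. The labels do not state a pairing, and the main fit used none. With the block within genotype the KO count is the 35 given above. Dim probes near background limit the lower bounds.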
